A study of Mus musculus with 8 samples.

Results

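MicroRNAs (miRNAs) bound to AGO2 were compared between resting and proliferating mouse B cells, in the 4 immunoprecipitate (IP) libraries of a series of 8. The members were taken by label: 2 IP libraries of resting cells and 2 of proliferating cells, while the 4 input libraries, made from the RNA before precipitation, serve as the reference for total miRNA. All cells came from spleens of mice of genotype Ago2HA/HA, in which both copies of the Ago2 gene encode an HA epitope, so no group had untagged AGO2. Resting B cells had been purified by depleting cells that bear CD43, and proliferating cells were such cells after activation in culture with an agent and for a time that the labels do not give. AGO2 was pulled down through the HA epitope. The labels state that a mock IP from untagged animals yielded no RNA and was not sequenced, so no library measures the background of the IP. Whether the paired libraries of a state stem from different mice is not said in the labels. The p-values therefore measure the spread between these libraries, which may be technical. Each cell state has its own count table, so state and table cannot be told apart. The tables count miRNA genes alone, so the B cell identity of the samples was not checked with protein-coding markers here.

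miRNAs are short RNAs that AGO2, an Argonaute protein, holds as guides and directs to messenger RNAs, which are then translated less or degraded. The seed, the stretch near the guide's 5′ end, directs pairing, and miRNAs that share a seed can recognise overlapping sets of targets. In lymphocytes, miR-150 marks the resting state, miR-155 is produced from a gene switched on by activation, the miR-17 clusters are transcribed in dividing cells under Myc, and let-7 represses genes of growth and cell division.

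The sequences below are the guides of families that the results turn on, so that shared seeds can be seen. They are mature guide strands from RefSeq (GRCm38.p6), 5′ to 3′, with the seed, bases 2 to 8, in capitals. The arm shown is the one usually loaded, taken as background, since the deposited counts cover both arms of a hairpin. The 5 let-7 guides that follow share 1 seed, although Mir98 was lower in the resting IP and the other 4 genes were higher.
let-7b-5p: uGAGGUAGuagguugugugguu
let-7i-5p: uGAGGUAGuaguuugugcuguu
let-7g-5p: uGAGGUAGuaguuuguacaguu
let-7f-5p: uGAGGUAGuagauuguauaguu
miR-98-5p: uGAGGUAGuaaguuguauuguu
The miR-17 clusters carry several seeds, of which these were the most abundant in the IP; the first 3 share 1 seed and the last 2 another.
miR-17-5p: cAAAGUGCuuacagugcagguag
miR-20a-5p: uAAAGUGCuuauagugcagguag
miR-93-5p: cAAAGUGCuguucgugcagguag
miR-25-3p: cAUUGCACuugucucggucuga
miR-92a-3p: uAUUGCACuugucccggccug
The next guides marked the states: miR-26 the resting IP, miR-155 and the miR-132 and miR-212 pair the proliferating IP.
miR-26a-5p: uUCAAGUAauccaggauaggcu
miR-26b-5p: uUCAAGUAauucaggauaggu
miR-155-5p: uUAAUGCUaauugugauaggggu
miR-132-3p: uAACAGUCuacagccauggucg
miR-212-3p: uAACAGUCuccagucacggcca
The miR-200 genes fall into 2 seed groups that differ at a single seed base, and both were higher in the resting IP.
miR-200b-3p: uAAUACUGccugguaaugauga
miR-200c-3p: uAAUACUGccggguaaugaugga
miR-429-3p: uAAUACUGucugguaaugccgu
miR-200a-3p: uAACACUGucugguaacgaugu
miR-141-3p: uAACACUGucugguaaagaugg

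A few features held most of the IP counts in both states. The 10 most abundant features held 76.5% and 77.9% of counts in the resting IPs and 83.3% and 81.6% in the proliferating IPs. It took 5 features in each resting library and 4 in each proliferating library to reach 50% of counts. By mean level, 9 of the 10 most abundant features were shared: Mir146, Mir150, Mir15b, Mir21a, Mir25, Mir26b, Mir342, Mir92-1 and Mir93. Mirlet7i completed the list in resting cells and Mir155 in proliferating cells. The single most abundant feature was Mir146 in 1 resting library (14.2%) and Mir150 in the other (19.0%), and it was Mir93 in both proliferating libraries (21.4% and 18.7%). Among the guides that could be counted, the states thus shared most of the leading ones and differed in their order. Mir142, Mir191, Mir24-1, Mir24-2 and Mir378a had no IP count and are each overlapped by another feature, so their rank is unknown. Shares here and below leave these genes out. The rank of guides made by several genes is uncertain as well, since how reads with several matches were handled is not given.

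Gene counts were summed by the seed of the guide usually loaded, and the AGO2 content shifted between a few families. The counts cover both arms of a hairpin, so these are shares of genes, not of guides. Mirlet7a-2, for which no guide sequence was available, is left out of the let-7 sum, and Mirlet7e and Mirlet7f-1 had no count. Genes with the let-7 seed made up 7.40% ± 0.695 of resting and 2.35% ± 0.717 of proliferating IP counts (mean ± SD, n = 2 libraries per state here and below). The miR-26 seed made up 8.26% ± 0.773 of resting and 1.80% ± 0.0417 of proliferating IP counts. The miR-155 seed, carried by Mir155 alone, went the other way, with 0.938% ± 0.145 of resting and 11.6% ± 1.15 of proliferating IP counts. The miR-17 seed of 6 genes accounted for 8.66% ± 1.60 of resting and 22.3% ± 1.73 of proliferating IP counts, and the seed shared by miR-25, miR-92a, miR-363 and miR-32 for 9.83% ± 0.330 of resting and 17.2% ± 3.42 of proliferating IP counts. Of the 5 tested genes of the last seed 4 were lower and 1 was higher in the resting IP. Over all tested features 28.3% were lower and 23.7% were higher. The higher gene of that seed, Mir32, was named after its values were seen. It had 1740.3 and 1542 CPM in the resting IPs and 401 and 166 CPM in the proliferating IPs (log2 fold change 2.54 with SE 0.37, edgeR adjusted p = 1.9e-07). The value was 3.28 without proliferating IP replicate 1. The largest of these shares in 1 state, the miR-17 seed in proliferating cells, was thus 21.1% or more in both libraries, and no resting library exceeded 9.80%. The miR-146 seed stood at 12.6% ± 2.31 of resting and 10.7% ± 0.369 of proliferating IP counts, a difference within the spread of the resting pair. Shares are parts of a whole, so a rise of 1 family lowers the others.

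**Figure D1:**
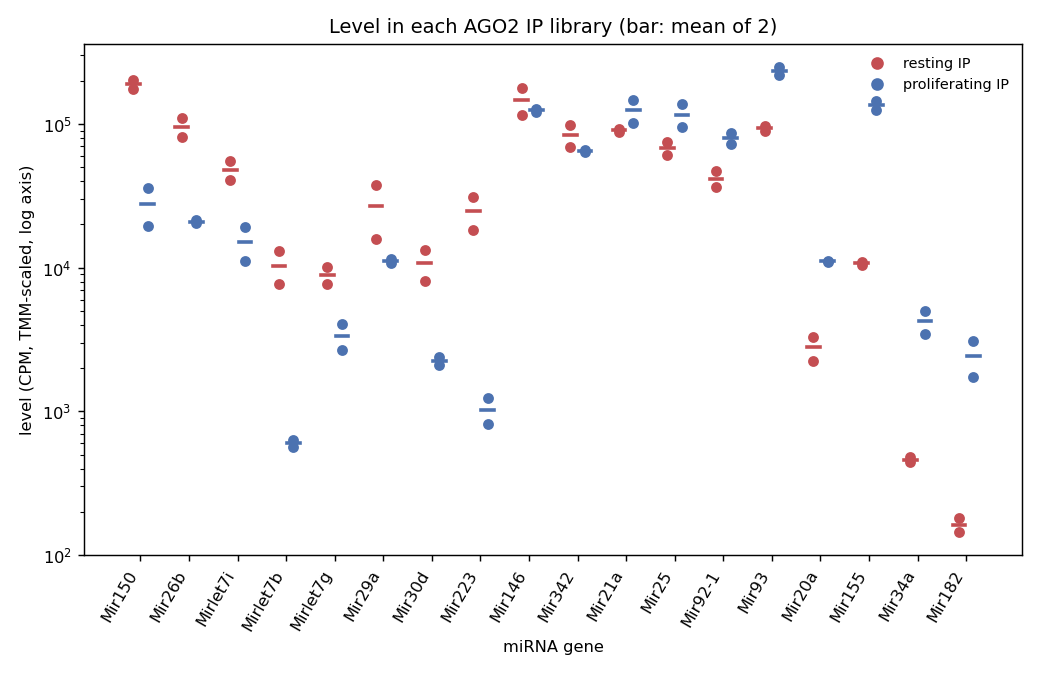
Level of 18 miRNA genes in each IP library, in CPM with TMM factors (log axis), red for resting and blue for proliferating cells; each point is a library and each bar the mean of 2. Mir155 sits near 10733 CPM in resting and 135168 CPM in proliferating cells, while the points of Mir146 overlap between states.

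Of the 2202 features in the tables, 515 had a count in an IP library and 219 passed the filter on low counts and were tested. At an adjusted p under 0.05 in edgeR's quasi-likelihood test, 114 features differed between the states (52.1% of those tested), 52 higher (23.7%) and 62 lower (28.3%) in the resting IP. A positive log2 fold change means higher in resting cells throughout. The libraries of the 2 states were apart for 112 of these 114 features. Over all tested features 164 (74.9%) had the states apart, 72 higher (32.9%) and 92 lower (42%) in the resting IP. A difference of at least 4-fold was reached by 28 of the features called higher and 39 of those called lower. Without adjustment, 131 features had a p under 0.05. The median log2 fold change of all tested features was -0.21, so the group medians below are to be read against that value. The groups were chosen with earlier results of these data known, so their counts of calls are descriptions and not tests. With upper-quartile in place of TMM factors the median moved to 0.45 and the split to 75 higher and 38 lower, so directions of small changes depend on the scaling.

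**Figure D2:**
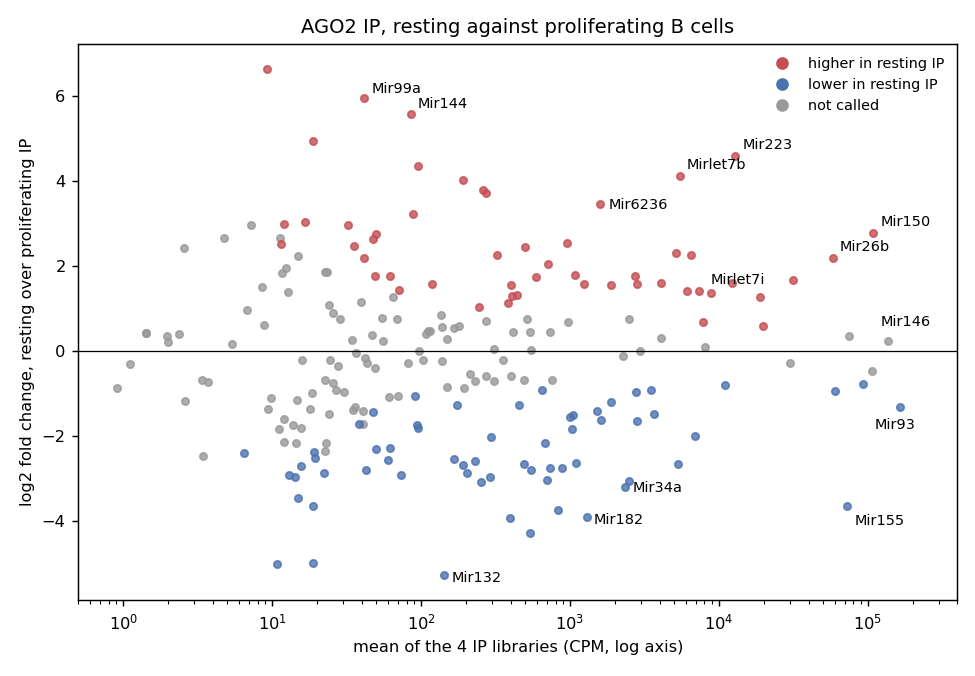
Mean level in the 4 IP libraries (CPM, log axis) against the log2 fold change of resting over proliferating IP for the 219 tested features; red points were called higher in resting cells, blue lower and grey not called. Mir223 and Mirlet7b lie above 4, Mir155, Mir182 and Mir34a below -3, and Mir146 near 0.

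The 8 libraries differ in depth. The resting IPs hold 1681148 and 788869 counts, the proliferating IPs 795229 and 1376045, and the inputs between 213418 and 386598. In the IPs, 3 counts correspond to between 1.78 and 3.80 CPM of a library's total. The log2 CPM of the IP pairs correlated across features with r = 0.958 in resting and 0.972 in proliferating cells, where features are not independent replicates. Among the 51 features with at least 1000 CPM, the higher library of a pair exceeded the lower by a median factor of 1.31 in resting and 1.20 in proliferating cells. The largest such factors were 11.8, for Mir6236 in resting cells, and 1.86, for Mir339 in proliferating cells. Mir6236 had 454 and 5348 CPM in the resting IPs and 224 and 301 CPM in the proliferating IPs, so 1 resting library stood apart from the other 3. Its call (log2 fold change 3.46, edgeR adjusted p = 1.1e-06) ended without resting IP replicate 2, at 0.69 (adjusted p = 0.15).

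Most let-7 genes were higher in AGO2 of resting cells. Of 12 let-7 genes in the tables, 10 were tested, 7 were higher, 1 was lower and 2 were not called, beside 23.7% higher and 28.3% lower of all tested features, with a median log2 fold change of 1.98. With upper-quartile factors 8 were higher and none was lower. Together they held 7.89% and 6.91% of the resting and 1.85% and 2.87% of the proliferating IP counts. The exception was Mir98, which bears the let-7 seed and was lower. Mirlet7e and Mirlet7f-1 had no count. Both are overlapped by a gene on the other strand, which leaves their level unknown.

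Mirlet7b (chr15:85707319-85707403, plus strand, in the span of Lncppara) had the largest difference among abundant let-7 genes. Its level was 13027 and 7658 CPM in the resting IPs and 632 and 568 CPM in the proliferating IPs, so the lower resting library stood over 10 times above either proliferating one. The fold was 17.2 (log2 fold change 4.11 with SE 0.32, edgeR adjusted p = 3.7e-14). Its cluster partner Mirlet7c-2, whose guide is that of let-7c, had 251 and 112 CPM in the resting IPs and 10.2 and 7.63 CPM in the proliferating IPs (log2 fold change 4.35 with SE 0.68, edgeR adjusted p = 7.8e-07; 3.74 without resting IP replicate 1). Mirlet7i (chr10:122985640-122985724, minus strand) was the most abundant let-7 gene, with 55102 and 41016 CPM in the resting IPs and 11048 and 19130.1 CPM in the proliferating IPs. Its states were apart by more than the gap inside either pair (log2 fold change 1.67 with SE 0.25, edgeR adjusted p = 4.6e-07). Mirlet7f-2, in the span of the ubiquitin ligase gene Huwe1, had 9149 and 7915 CPM in the resting IPs and 1442 and 2024 CPM in the proliferating IPs (log2 fold change 2.30 with SE 0.29, edgeR adjusted p = 7.8e-09). Mirlet7g, in the span of Wdr82, had 10093 and 7697 CPM in the resting IPs and 2677 and 4030.0 CPM in the proliferating IPs (log2 fold change 1.41 with SE 0.27, edgeR adjusted p = 3.0e-05). Both were about as abundant as Mirlet7b in resting cells and kept more of their level in proliferating cells.

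The smaller let-7 differences rested on narrower gaps. Mirlet7d had 10989 and 8221 CPM in the resting IPs and 5039 and 6957 CPM in the proliferating IPs, and its call (log2 fold change 0.68 with SE 0.27, edgeR adjusted p = 0.031) was lost without resting IP replicate 1 (0.55), without proliferating IP replicate 1 (0.43) and with the IP libraries alone (0.69). Mirlet7a-1 had 77.6 and 42.8 CPM in the resting IPs and 14.6 and 7.63 CPM in the proliferating IPs. Its call (log2 fold change 2.47 with SE 0.78, edgeR adjusted p = 0.0076) was lost without resting IP replicate 1 (2.06) or proliferating IP replicate 2 (2.15). Mirlet7a-2 was not called, at 54.5 and 17.4 against 21.9 and 52.6 CPM, with overlapping states. Mirlet7c-1 was not called either, at 29.1 and 10.7 against 1.46 and 4.24 CPM (log2 fold change 2.66 with SE 1.18, edgeR adjusted p = 0.056), but was called higher with upper-quartile factors (3.34) and with the IP libraries alone (2.64). Genes that give the same guide, such as those of let-7a, let-7c and let-7f, share reads, so the split between copies is uncertain. How reads matching several genes were handled is not given, so the total of such a guide is uncertain too. Mirlet7a-1 and Mirlet7a-2 had 155 and 163 IP counts, against 134599 for Mirlet7i. Mirlet7f-2, which also has a copy, had 21547.

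Mir98 (chrX:151913214-151913321, plus strand) lies on the same strand of Huwe1 as Mirlet7f-2. Its level was 270.1 and 259.7 CPM in the resting IPs and 622 and 661 CPM in the proliferating IPs, with both pairs tight and the states apart, the reverse of its neighbour. The log2 fold change was -1.28 (SE 0.34, edgeR adjusted p = 0.0019), and it was -0.61 and not called (adjusted p = 0.11) with upper-quartile factors. In the input, Mir98 was lower in resting cells as well, at -1.80 (edgeR adjusted p = 8.4e-05).

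The miRNAs of the miR-17 clusters, which Myc induces in dividing cells, were lower in the resting IP. Of 15 genes tested, 14 were lower, none was higher and Mir106b was not called, beside 23.7% higher and 28.3% lower of all tested features, with a median log2 fold change of -1.99. The 3 clusters held 17.6% and 19.4% of the resting and 38.8% and 41.3% of the proliferating IP counts. With upper-quartile factors 10 of the 15 were lower and none was higher.

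The Mcm7 cluster gave most of these counts. Mir93 (chr5:138165523-138165610, minus strand) had 89649 and 97592 CPM in the resting IPs and 248489 and 217967 CPM in the proliferating IPs, the highest level of any feature in proliferating cells (log2 fold change -1.32 with SE 0.21, edgeR adjusted p = 1.2e-06). Mir25, from the same transcript, had 75045 and 61241 CPM in the resting IPs and 95283 and 137342 CPM in the proliferating IPs. Its call (log2 fold change -0.77 with SE 0.23, edgeR adjusted p = 0.004) was lost without proliferating IP replicate 2 (-0.35, adjusted p = 0.18) and with upper-quartile factors (-0.09). Mir106b, the third member, had 504 and 246 CPM in the resting IPs and 490.0 and 714 CPM in the proliferating IPs, with overlapping states, and was not called (log2 fold change -0.68 with SE 0.37, edgeR adjusted p = 0.12), though it was called lower without resting IP replicate 1 (-1.20). The members of 1 transcript thus spanned -1.32 to -0.68.

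Members of the Mir17 cluster and of its paralog on the X chromosome spanned a wider range of change. Mir20a of the Mir17 cluster on chromosome 14 had 2254 and 3318 CPM in the resting IPs and 11039.7 and 11067 CPM in the proliferating IPs (log2 fold change -1.99 with SE 0.28, edgeR adjusted p = 8.0e-08). Mir17 itself, named after its values were seen, had 476 and 590.2 CPM in the resting IPs and 3882 and 5012 CPM in the proliferating IPs (log2 fold change -3.06 with SE 0.31, edgeR adjusted p = 7.3e-11). Mir92-1, from the 3′ end of that cluster, had 46811 and 36184 CPM in the resting IPs and 72067 and 86929 CPM in the proliferating IPs (log2 fold change -0.94 with SE 0.23, edgeR adjusted p = 6.4e-04), and its call was lost with upper-quartile factors (-0.27, adjusted p = 0.30). Mir20b of the paralogous cluster on the X chromosome, also named after its values were seen, had 1446 and 1471 CPM in the resting IPs and 8463 and 9945 CPM in the proliferating IPs (log2 fold change -2.66 with SE 0.28, edgeR adjusted p = 2.6e-10). Mir19b-1 had 1 and 0 counts in the resting IPs and 22 and 12 counts in the proliferating IPs, a ratio of proliferating over resting of 38.1 (95% counting interval 6.39 to 1548). Its call (edgeR adjusted p = 0.0076) was lost without either resting library (-6.54 and -4.55), and it shares its guide with Mir19b-2.

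miRNAs of resting lymphocytes were higher in the resting IP. Of 11 tested genes of miR-150, miR-26, miR-29 and miR-30, 8 were higher, none was lower and 3 were not called (9 higher with upper-quartile factors), beside 23.7% higher and 28.3% lower of all tested features, with a median log2 fold change of 1.75. They held 28.0% and 29.8% of the resting and 6.26% and 4.99% of the proliferating IP counts. The 3 that were not called, Mir29b-1, Mir29b-2 and Mir30c-1, all had fewer than 100 CPM in every IP library.

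Mir150 (chr7:45121757-45121821, plus strand), which restrains Myb in lymphocytes, had 176487 and 201105 CPM in the resting IPs and 35791 and 19629 CPM in the proliferating IPs, with every resting library more than 4 times above either proliferating one. The fold was 6.81 (log2 fold change 2.77 with SE 0.25, edgeR adjusted p = 2.4e-12). Mir26b (chr1:74394310-74394394, plus strand), in the span of the phosphatase gene Ctdsp1, had 109885 and 81014 CPM in the resting IPs and 20558 and 21315 CPM in the proliferating IPs (log2 fold change 2.19 with SE 0.24, edgeR adjusted p = 2.8e-10). Mir26a-2, in the span of the related gene Ctdsp2, was counted less and had 590.3 and 427 CPM in the resting IPs and 39.5 and 37.3 CPM in the proliferating IPs (log2 fold change 3.73 with SE 0.46, edgeR adjusted p = 5.9e-09). Both miR-26 genes were thus higher in each resting library than in any proliferating one, by the larger factor in Mir26a-2. That gene shares its guide with Mir26a-1, and how reads matching both were handled is not given. The level of miR-26a beside that of miR-26b is therefore uncertain. Mir26a-1 had only 10 IP counts and was not tested.

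Mir30d had 13318 and 8083 CPM in the resting IPs and 2102 and 2381 CPM in the proliferating IPs (log2 fold change 2.26 with SE 0.27, edgeR adjusted p = 5.3e-09). Its cluster partner Mir30b had 7757 and 4529 CPM in the resting IPs and 2009.6 and 2074 CPM in the proliferating IPs (log2 fold change 1.59 with SE 0.29, edgeR adjusted p = 1.4e-05). Mir29a had 37698 and 15907 CPM in the resting IPs and 10714 and 11455 CPM in the proliferating IPs, so the resting pair was wide. Its log2 fold change of 1.27 (SE 0.27, edgeR adjusted p = 9.7e-05) fell to 0.62 without resting IP replicate 1 and stayed called (adjusted p = 0.012). Mir29c, of the same seed, had 5545 and 2927 CPM in the resting IPs and 1338 and 1177 CPM in the proliferating IPs (log2 fold change 1.75 with SE 0.28, edgeR adjusted p = 1.5e-06).

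miRNAs of lymphocyte activation were lower in the resting IP. Of 12 genes, 9 were lower, none was higher and Mir21a, Mir146 and Mir146b were not called, beside 23.7% higher and 28.3% lower of all tested features, with a median log2 fold change of -2.69. The group held 22.5% and 20.5% of the resting and 34.3% and 32.7% of the proliferating IP counts. Mir155 alone held 0.836% and 1.04% of the resting and 10.8% and 12.4% of the proliferating IP counts, so it gave most of the gain. Most of the other counts were of Mir21a and Mir146, which were not called. With upper-quartile factors 8 were lower and 1 was higher.

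Mir155 (chr16:84714140-84714204, plus strand, in the span of Mir155hg), needed for germinal centre responses, had 10483 and 10983 CPM in the resting IPs and 125485 and 144852 CPM in the proliferating IPs. Both pairs were tight and the states were far apart. The level in proliferating cells was 12.6 times that in resting cells (log2 fold change -3.65 with SE 0.24, edgeR adjusted p = 5.4e-16). Mir21a and Mir146 were not called. Mir21a, a miRNA of growing cells, had 91891 and 88568 CPM in the resting IPs and 146807 and 101615 CPM in the proliferating IPs (log2 fold change -0.46 with SE 0.22, edgeR adjusted p = 0.072). Mir146, whose guide dampens NF-kappaB signalling, had 178238 and 115555 CPM in the resting IPs and 121316 and 127772 CPM in the proliferating IPs (log2 fold change 0.24 with SE 0.22, edgeR adjusted p = 0.35). Mir21a was called lower without resting IP replicate 2 (-0.53) or proliferating IP replicate 2 (-0.56), and Mir146 higher without resting IP replicate 2 (0.43). Mir21a was also called lower with a minimum count of 50 (-0.50) and Mir146 higher with upper-quartile factors (0.89).

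Mir132 and Mir212, neighbours that CREB induces, had nearly no counts in resting AGO2. Mir132 had 1.49 and 14.7 CPM in the resting IPs and 268 and 287 CPM in the proliferating IPs (log2 fold change -5.26 with SE 0.66, edgeR adjusted p = 8.2e-09), and its log2 fold change ranged from -7.45 without resting IP replicate 2 to -4.12 without resting IP replicate 1. Mir212 had 1 and 1 counts in the resting IPs and 21 and 50 counts in the proliferating IPs, a ratio of proliferating over resting of 39.8 (95% counting interval 10.6 to 335). The Mir182, Mir96 and Mir183 cluster, of which miR-182 is induced by interleukin 2 in T cells and represses Foxo1, was lower throughout. Mir182 had 179.8 and 145 CPM in the resting IPs and 1745 and 3099.9 CPM in the proliferating IPs (log2 fold change -3.90 with SE 0.36, edgeR adjusted p = 5.6e-12), and Mir183 had 48.5 and 49.5 CPM in the resting IPs and 455 and 1028 CPM in the proliferating IPs (log2 fold change -3.92 with SE 0.41, edgeR adjusted p = 1.9e-10). The proliferating pair differed in both, and without proliferating IP replicate 2 the values were -3.29 and -3.07. Mir96 stood at 15.7 and 18.7 against 83.4 and 175 CPM (log2 fold change -2.91; -2.13 without that library). Mir221 had 902 and 762 CPM in the resting IPs and 2009.6 and 2402 CPM in the proliferating IPs (log2 fold change -1.41 with SE 0.31, edgeR adjusted p = 1.6e-04). Its partner Mir222 stood at 123 and 108 against 339 and 604 CPM (log2 fold change -2.02; -1.41 without proliferating IP replicate 2).

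Of the 3 p53-linked genes tested, 1 was lower and 1 was higher, beside 28.3% lower and 23.7% higher of all tested features. Mir34a, which p53 induces, was lower in the resting IP at 444 and 479 against 3456 and 5003 CPM (log2 fold change -3.20 with SE 0.31, edgeR adjusted p = 2.1e-11). Mir192 was higher, at 2912 and 2710.3 against 897 and 1017 CPM (log2 fold change 1.55 with SE 0.30, edgeR adjusted p = 3.1e-05), and its neighbour Mir194-2 was not called (1.15, edgeR adjusted p = 0.16) except as higher with upper-quartile factors (1.83). The 3 miR-7 genes were all lower, beside 28.3% of all tested features, with a median of -2.58. Mir7-1, in the span of Hnrnpk, was the most abundant, at 943 and 634 against 2628 and 2234 CPM (log2 fold change -1.62 with SE 0.30, edgeR adjusted p = 1.8e-05), while Mir7-2 stood at -2.96 and Mir7b at -2.58. The 3 tested miR-130 and miR-301 genes were also all lower, beside the same 28.3%. Mir130b had 237 and 375 CPM in the resting IPs and 2176 and 1620.3 CPM in the proliferating IPs (log2 fold change -2.64 with SE 0.33, edgeR adjusted p = 1.2e-08), Mir301 stood at -1.50 and Mir301b at -2.68.

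All 5 miR-200 genes, known for maintaining the epithelial state, were higher in the resting IP, beside 23.7% of all tested features, with a median of 2.63. They were rare in both states, at 0.203% ± 0.00830 of resting and 0.0411% ± 0.00434 of proliferating IP counts. Mir200b had 372 and 345 CPM in the resting IPs and 20.5 and 22.9 CPM in the proliferating IPs (log2 fold change 4.03 with SE 0.53, edgeR adjusted p = 2.8e-08), and Mir200c had 982 and 835 CPM in the resting IPs and 274 and 270.5 CPM in the proliferating IPs (log2 fold change 1.74 with SE 0.36, edgeR adjusted p = 8.0e-05). Mir141 had 1025 and 659.8 CPM in the resting IPs and 181 and 127 CPM in the proliferating IPs (log2 fold change 2.46 with SE 0.37, edgeR adjusted p = 4.9e-07). Mir429 stood at 191 and 126 against 24.9 and 10.2 CPM (log2 fold change 3.21; 3.90 without proliferating IP replicate 1). Mir200a stood at 49.3 and 114 against 13.2 and 12.7 CPM (log2 fold change 2.63; 1.82 without resting IP replicate 2). No resting library of any of the 5 was as low as a proliferating one, which held for 32.9% of all tested features. The 2 seed groups differed by similar factors, 4.58 for the seed of miR-200b, miR-200c and miR-429 and 5.52 for that of miR-200a and miR-141, in summed CPM of resting over proliferating cells; the difference between them was not tested.

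The tested genes of the broadly haematopoietic list did not move as a group. Of its 20 genes in the tables, Mir142, Mir191, Mir24-1, Mir24-2 and Mir378a had no IP count and could not be tested. Each is overlapped by another feature, which leaves their level unknown. Of 15 tested genes, 1 was higher, 5 were lower and 9 were not called, beside 23.7% higher and 28.3% lower of all tested features, with a median of 0.011, and upper-quartile factors turned the calls to 6 higher and 2 lower. Mir342, in the span of Evl, had 98633 and 69258 CPM in the resting IPs and 64240.4 and 66330.3 CPM in the proliferating IPs (log2 fold change 0.36 with SE 0.22, edgeR adjusted p = 0.16), and was called higher without resting IP replicate 2 (0.50), with upper-quartile factors (1.02), with DESeq2's size factors (0.49) and with no low-count filter (0.56). Mir15b, in the span of Smc4, had 32178 and 22317 CPM in the resting IPs and 38387 and 27958 CPM in the proliferating IPs (log2 fold change -0.28 with SE 0.24, edgeR adjusted p = 0.32; 0.34 with upper-quartile factors). Mir27b stood at 0.10 and Mir425 at 0.011, both not called, while upper-quartile factors called Mir27b higher (0.74). Mir23a and Mir23b, named after their values were seen, were lower. Mir23a had 1599 and 1149.7 CPM in the resting IPs and 4506 and 4111 CPM in the proliferating IPs (log2 fold change -1.65 with SE 0.30, edgeR adjusted p = 8.8e-06), and Mir23b had 570.1 and 452 CPM in the resting IPs and 1610.3 and 1372 CPM in the proliferating IPs (log2 fold change -1.54 with SE 0.33, edgeR adjusted p = 1.3e-04). Among the 6 tested genes with the miR-15 and miR-16 seed, 2 were higher, 1 was lower and 3 were not called (3 higher and none lower with upper-quartile factors). Of all tested features 52.1% were called. The 2 higher ones were Mir16-1, at 1720.1 and 1619 against 560.2 and 411 CPM (log2 fold change 1.78 with SE 0.31, edgeR adjusted p = 5.9e-06), and Mir322, at 1284 and 997 against 329 and 221 CPM (log2 fold change 2.06 with SE 0.33, edgeR adjusted p = 1.2e-06). Mir15a, beside Mir16-1 in Dleu2, was not called (0.69, edgeR adjusted p = 0.069) but was called higher without proliferating IP replicate 1 (1.27), with upper-quartile factors (1.29) and with no low-count filter (0.89). The miR-16 copies share reads.

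Of the 5 genes tested in the X-linked cluster of Mir322, whose median was 1.50, Mir322 was the only one called, beside 52.1% of all tested features. With DESeq2's size factors 2 were called, and with upper-quartile factors 3. Mir503 stood at 1.28 and was called without resting or proliferating IP replicate 2 (1.50 and 2.18), with DESeq2 (1.43), with its size factors (1.42) and with upper-quartile factors (1.99). Mir450b stood at 2.23 and was called with the IP libraries alone (2.27) and with upper-quartile factors (2.86). Mir542 stood at 1.50 and Mir351 at -0.35. Of 5 tested genes of the miR-10, miR-99 and miR-125 families, 3 were higher and 2 were not called, beside 23.7% of all tested features higher and 52.1% called in either direction, with a median of 1.58. Mir99a had 164 and 30 counts in the resting IPs and 2 and 0 counts in the proliferating IPs, a ratio of 86.6 (95% counting interval 23.6 to 720.1) of resting over proliferating cells; its fitted log2 fold change of 5.95 was 8.72 without proliferating IP replicate 1. Mir99b and Mir125a were not called. Of 5 mirtrons and other miRNAs that bypass DROSHA, Mir877 was lower (-2.56), Mir1839 was higher (2.26) and Mir702, Mir1981 and Mir1249 were not called. Of all tested features 52.1% were called. Mir1249 was called lower without resting IP replicate 2 (-2.15) and Mir1981 higher with upper-quartile factors (1.11). The 5 tested miR-181 genes gave 2 lower calls, beside 28.3% lower of all tested features. These were the 2 miR-181b genes (-2.91 and -1.72), with at most 65.3 CPM in any IP library. Both calls were lost without single IP libraries (-3.22 to -2.38 and -1.90 to -1.42), and upper-quartile factors gave 2 higher calls and none lower.

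**Figure D3:**
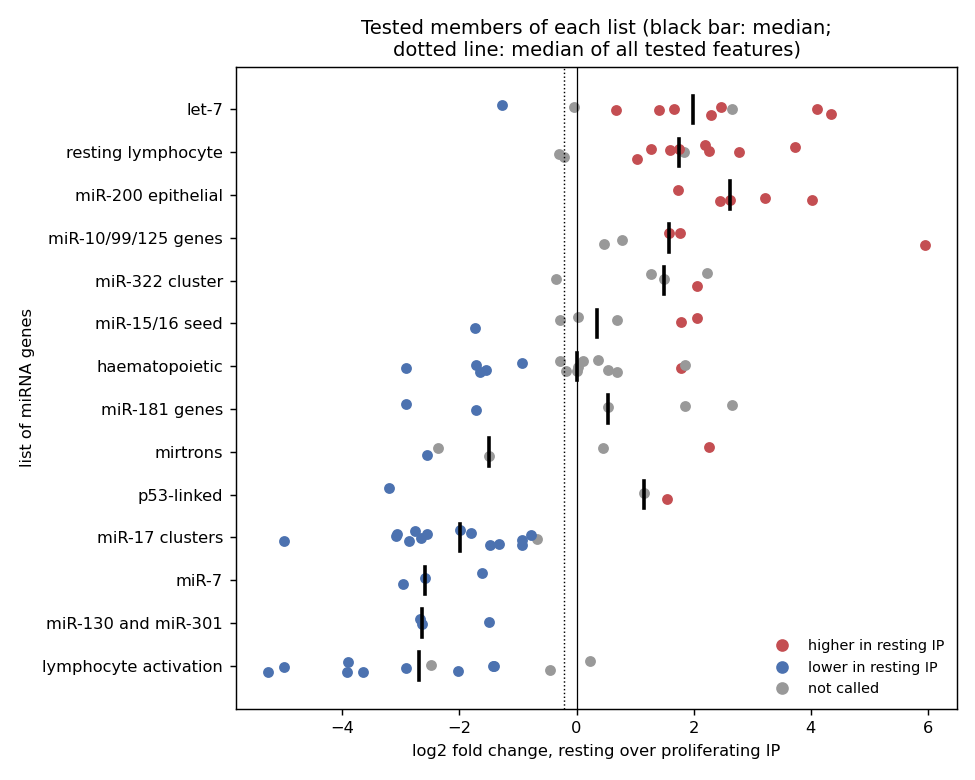
Log2 fold change of resting over proliferating IP (x axis) for each tested gene of the miRNA groups (y axis), red where called higher in resting cells, blue lower and grey not called; black bars mark group medians and the dotted line the median of all tested features, -0.21. The let-7 median is 1.98 with 1 blue point, the miR-17 clusters lie left of 0 at a median of -1.99, and the haematopoietic list straddles 0.

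miRNAs typical of other cell types were present in the IPs, and several differed between states. Mir223 (chrX:96242817-96242926, plus strand), abundant in neutrophils and other myeloid cells, had 18222 and 31035 CPM in the resting IPs and 1237 and 811 CPM in the proliferating IPs, a fold of 24.1 (log2 fold change 4.59 with SE 0.35, edgeR adjusted p = 3.7e-14). It reached 1.45% and 2.94% of the resting IP counts. Mir144, of erythroid cells, had 85.8 and 248 CPM in the resting IPs and 4.39 and 2.54 CPM in the proliferating IPs (log2 fold change 5.58 with SE 0.75, edgeR adjusted p = 4.0e-08), with 4.54 without resting IP replicate 2. Mir486 and Mir3107 were at 0, but they overlap on opposite strands. Mir126a, of endothelial cells and platelets, went the other way, with 76.9 and 155 CPM in the resting IPs and 2046 and 1037 CPM in the proliferating IPs (log2 fold change -3.74 with SE 0.41, edgeR adjusted p = 2.8e-10), and -4.41 without resting IP replicate 2. It overlaps Mir126b, at 0, on the opposite strand. Of the 9 genes listed as stromal only Mir10a and Mir10b were tested, and both were higher in the resting IP, beside 23.7% of all tested features. The summed level of the list was 4590.2 and 3998 against 1542 and 1316 CPM. Nearly all of it came from Mir10a, with 11500 IP counts against 209 for Mir10b. The call of Mir10b was lost when any 1 IP library was left out (1.48 to 2.22), with no low-count filter (1.96) and with the replicate block (1.71). Mir145a, Mir145b, Mir199a-2 and Mir214 were at 0, and Mir143, Mir199a-1 and Mir199b had 16, 1 and 18 IP counts. The hepatocyte miRNA Mir122 was at 35.1 and 37.5 against 14.6 and 5.94 CPM and not called, although it was called higher with DESeq2's size factors, with upper-quartile factors, with the IP libraries fitted alone and without the unnamed and snoRNA-overlapping features. Mir9-1, Mir9-2 and the 3 Mir124a genes were at 0, and all 6 muscle genes were at 0. Mir128-1, of neural tissue and lymphocytes, was not called (0.45, edgeR adjusted p = 0.23) but was called higher with upper-quartile factors (1.09). The part of other cell types in the differences between states was not tested, and in such bulk samples fewer cells of a type and less of an RNA per cell cannot be told apart.

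Several large differences outside these groups completed the extremes. Mir139, in the span of Pde2a, had 582 and 388 CPM in the resting IPs and 36.6 and 33.9 CPM in the proliferating IPs (log2 fold change 3.78 with SE 0.44, edgeR adjusted p = 1.6e-09). Mir1983, whose feature overlaps an isoleucine tRNA gene, had 38.8 and 69.6 CPM in the resting IPs and 1043 and 1021 CPM in the proliferating IPs (log2 fold change -4.27 with SE 0.43, edgeR adjusted p = 5.3e-11). Mir378d had 70 and 16 counts in the resting IPs and 0 and 2 counts in the proliferating IPs, a ratio of 38.4 (95% counting interval 10.3 to 322) of resting over proliferating cells, and its fitted log2 fold change was 4.25 and no longer called without proliferating IP replicate 1, and 7.51 without replicate 2. Mir1934 had 6 and 0 counts in the resting IPs and 22 and 45 counts in the proliferating IPs (log2 fold change -3.65 with SE 1.02, edgeR adjusted p = 0.0026), with -7.31 without resting IP replicate 1. Mir6960 had 4 and 1 counts in the resting IPs and 27 and 19 counts in the proliferating IPs, and its call (edgeR adjusted p = 0.011) was lost without either resting library or without proliferating IP replicate 1 (-4.06, -3.20 and -2.77). Mir1941, named after its values were seen, had 19 and 17 counts in the resting IPs and 0 and 0 counts in the proliferating IPs and was at least 10.7-fold higher in resting cells, taking 3 counts over the proliferating pair as the floor. It was the only tested feature at 0 in a whole state. Over the 515 features with an IP count, 79 were counted in resting IPs only, with at most 36 counts, and 92 in proliferating IPs only, with at most 20, while 344 were counted in both, so no feature found in 1 state only had a high count.

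Calls were also compared within genomic clusters, whose genes are usually cut from 1 transcript. Features on the same strand within 10 kb of the next formed 29 clusters with at least 2 tested members, 74 features in all. In 13 clusters every tested member was called in the same direction, 5 higher and 8 lower. Another 8 clusters held members called higher and others not called, and 4 held members called lower and others not called. No member was called in 3 clusters. Only the Huwe1 pair, Mirlet7f-2 and Mir98, held calls in both directions, at 2.30 and -1.28. Even where directions were shared the size varied: the 6 genes of the Mir17 cluster ran from -5.00 to -0.94 and the 6 of its X-linked paralog from -3.08 to -0.93. The -5.00 belongs to Mir19b-1, which had 1 and 0 counts in the resting IPs, while Mir17 stood at -3.06. Mir130b and Mir301b, by contrast, stood at -2.64 and -2.68, and Mirlet7c-2 and Mirlet7b at 4.35 and 4.11. In the Mir17 cluster the value nearest 0 belonged to Mir92-1 and in the paralog to Mir92-2. Both carry the same guide, miR-92a, so its reads can fall on either gene and the 2 values need not be independent.

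**Figure D4:**
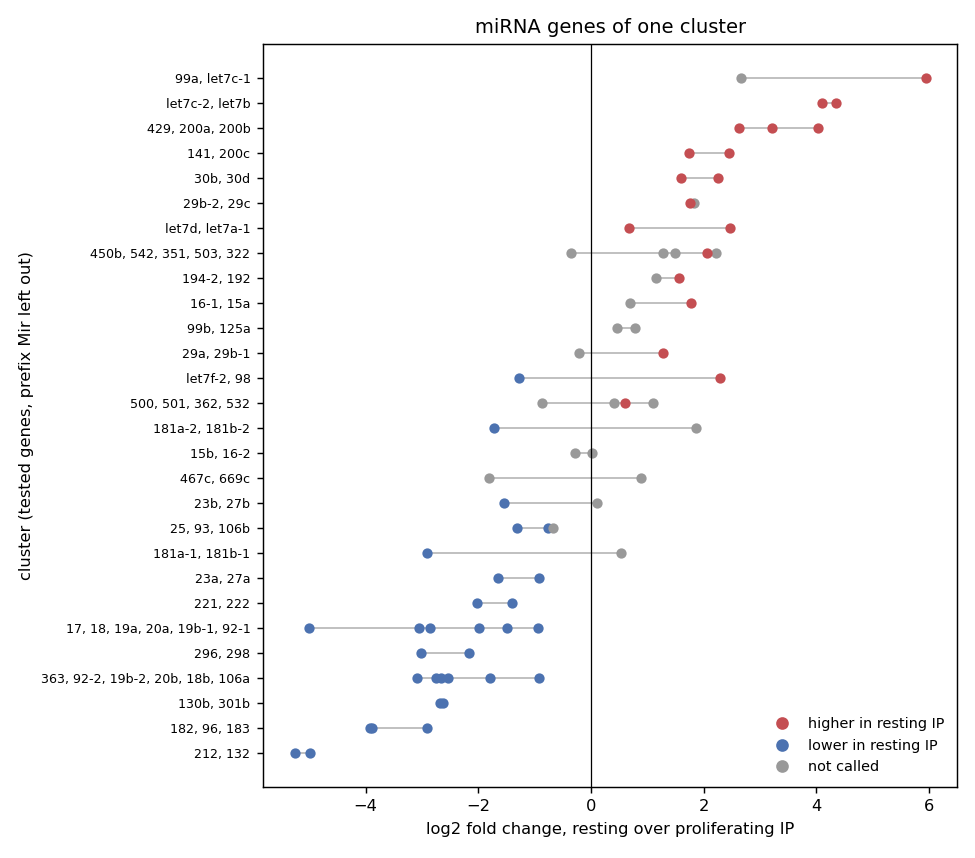
Log2 fold change of resting over proliferating IP (x axis) of the tested members of 28 genomic clusters (y axis, gene names without their Mir prefix), ordered by cluster median; red points were called higher in resting cells, blue lower and grey not called, and a grey line joins the members. The let-7f-2 and 98 row is the only one with both red and blue points, and a cluster with an unnamed member is left out.

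The change in AGO2 was then set against the change in total RNA. In the inputs, 108 features (49.3%) differed between states, 51 higher (23.3%) and 57 lower (26%) in resting cells, by edgeR at an adjusted p under 0.05. Of the 114 features called in the IP, 74 had the same call in the input, 38 were not called there and 2 had the opposite call. A further 32 were called in the input alone. A test of the difference itself, the IP log2 difference minus the input log2 difference, called 38 features (17.4%), 17 higher (7.76%) and 21 lower (9.59%), with 63 at an unadjusted p under 0.05. Of the 38 features called in the IP and not in the input, only 15 passed this test.

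Of the let-7 genes, 6 of 10 tested members were called higher in this difference, beside 7.76% of all features. In the input, 1 let-7 gene was higher, 3 were lower and the median was -0.43, against 1.98 in the IP. Mirlet7b was at 2936 and 2694 against 2602 and 2353 CPM (resting against proliferating) in the inputs, a far smaller gap than in the IPs (difference 3.92, SE 0.41, edgeR adjusted p = 1.3e-09). Mirlet7i was at 34287 and 28704 against 51783 and 43879 CPM in the inputs, where it was lower in resting cells, the reverse of the IP (difference 2.27, SE 0.35, edgeR adjusted p = 1.2e-05). For Mirlet7f-2 the difference was 2.18, SE 0.39, edgeR adjusted p = 1.3e-04, and for Mirlet7g it was 1.76, SE 0.38, edgeR adjusted p = 0.0012. These 4 calls held under all 12 alternatives tried. The calls of Mirlet7a-1 (3.27) and Mirlet7d (1.18) were lost under some of them. They stood at 2.66 and 0.83 without resting IP replicate 1 and at 3.52 and 0.73 without proliferating IP replicate 1, and Mirlet7a-1 was also lost without proliferating IP replicate 2 (2.96), with DESeq2 (3.33), with its size factors (3.32) and with upper-quartile factors (3.51).

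Both tested miR-26 genes were called higher in the difference too. Mir26b was at 26397 and 28007 against 18769.7 and 18736 CPM in the inputs, a log2 fold change of 0.54 against 2.19 in the IP (difference 1.65, SE 0.32, edgeR adjusted p = 2.8e-04). For Mir26a-2 the difference was 2.61, SE 0.63, edgeR adjusted p = 0.0031. Mir200b was not called in the input, at 44.8 and 66.3 against 39.5 and 24.6 CPM, and its difference was 3.25, SE 0.77, edgeR adjusted p = 0.0025. Mir200c had a difference of 1.74, SE 0.52, edgeR adjusted p = 0.015, lost without proliferating IP replicate 1 (adjusted p = 0.058). Mir223 was higher in resting cells in both kinds of library, with a difference of 1.40, SE 0.43, edgeR adjusted p = 0.018, which was lost under 9 alternatives and fell to 0.69 without resting IP replicate 2.

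Differences in the other direction mean that the ratio of IP to input was higher in proliferating than in resting cells. Mir23a was at 1189.6 and 1466 against 1250.2 and 1196 CPM in the inputs, with overlapping states, while it was lower in the resting IP (difference -1.77, SE 0.41, edgeR adjusted p = 0.0025). Mir17 had a difference of -1.90, SE 0.41, edgeR adjusted p = 0.0012, being lower in the resting input too (-1.16). Mir126a had a difference of -2.34, SE 0.53, edgeR adjusted p = 0.002, lost with library totals (-1.93). Mir3964, Mir455, Mir125a and Mir542 were higher in resting input and less so, or not, in the IP, with differences of -3.24, -3.33, -2.40 and -7.35. The last rests on few counts and was lost under 6 alternatives, and that of Mir125a was lost with upper-quartile factors (-2.11). Mir150 and Mir155 changed in the same direction in both kinds of library, by 3.54 and -3.37 in the input against 2.77 and -3.65 in the IP, and neither difference was called (-0.77, SE 0.33, edgeR adjusted p = 0.093 for Mir150, and -0.29, SE 0.31, edgeR adjusted p = 0.57 for Mir155). The miR-17 clusters were lower in both too, with 11 of 15 lower in the input, beside 26% of all tested features. In the difference 2 of 15 were called, beside 17.4% of all tested features. Of the 11 tested resting lymphocyte genes 8 were higher in the input too, beside 23.3% of all tested features, with a median of 1.39. Of the 12 activation genes 9 were lower in the input, beside 26%, with a median of -2.71. The difference called 2 of the 11 higher and 1 lower, and 1 of the 12 lower.

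**Figure D5:**
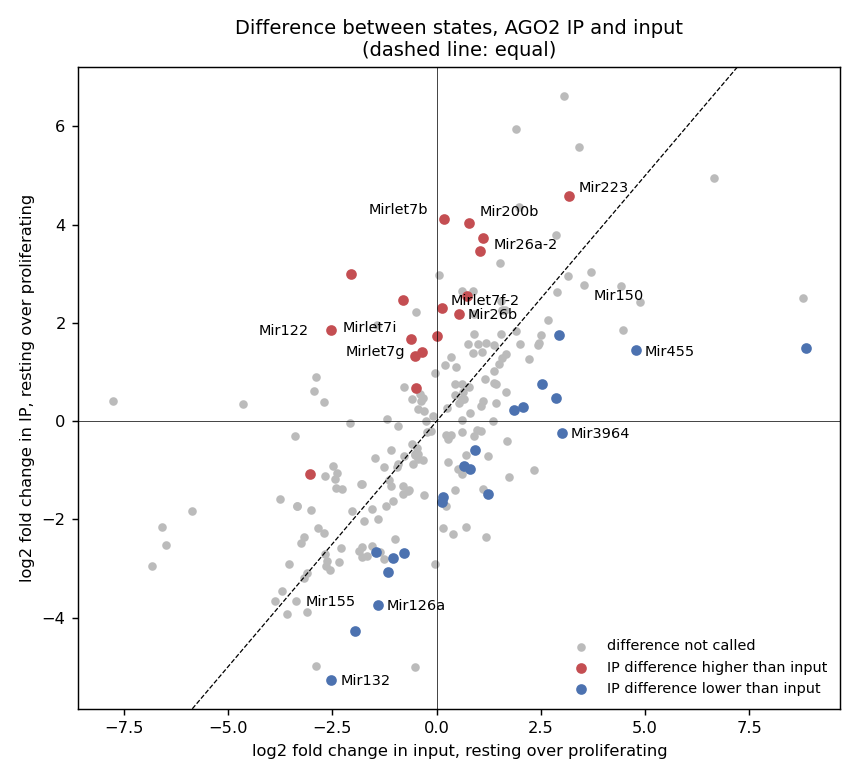
Log2 fold change of resting over proliferating cells in the input (x axis) and in the IP (y axis) for the 219 tested features; red and blue points had an IP difference called higher or lower than the input difference, grey points were not called, and the dashed line marks equal differences. Mirlet7b, Mirlet7i and Mir26b lie above the line, Mir126a below it, and Mir150 and Mir155 near it.

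Hairpin base content, feature length and position in other genes were compared over the calls. Median hairpin GC content was 49.4% for features called higher, 48.6% for those called lower and 50.4% for those not called, over the 84.6%, 98.4% and 81.0% of features with a hairpin in RefSeq. Median feature lengths were 83.5, 83.5 and 85 nt. Features within the span of another gene made up 65.4% of those called higher (34 of 52), 48.4% of those called lower (30 of 62) and 85.7% of those not called (90 of 105). The median IP level was 427 and 424 CPM in the called groups and 36.6 CPM among features not called, so calls were made mostly on the more deeply counted features. None of these differences was tested.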

How the data were processed

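Libraries were prepared with QIAseq miRNA reagents and read from 1 end on a NextSeq, per the labels. STAR 2.7.9a, SAMtools 1.15 and the build mm10 are listed per the submitters' processing notes. The authors deposited raw counts for each miRNA gene, made from alignments whose names say they were deduplicated, per the file headers. Not given in the sources used here are the counter, its strand setting, how duplicates were removed and how reads with several matches were handled. Unused sample columns numbered 0.

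The 2 tables were joined on gene ID, and 1179 of 2202 features were named by exact coordinates in RefSeq (GRCm38.p6). Unnamed features held 0.241% of IP counts, and 6 of them were tested. Replicate libraries differed by more than counting error (lowest chi-square per degree of freedom 8.56), so each counts as 1 sample. A quasi-likelihood model with 4 groups was fitted to all 8 libraries in edgeR 4.0.16 (R 4.3.3), with TMM factors and a minimum count of 10 in filterByExpr (4 residual and 36.6 prior degrees of freedom). Very small p-values thus rest mostly on spread shared over features. Tests were 2-sided, with Benjamini-Hochberg adjustment over the 219 features. SE is the absolute log2 fold change over the square root of the F statistic. A library's shares use its deposited total. CPM values are library-scaled counts that use TMM factors. For a state with 1 to 3 counts the text gives a ratio and an exact 95% counting interval, and 0 counts are replaced by a floor of 3 counts over the state. Intervals and floors cover counting error only. Genes with identical guides and features overlapping on opposite strands have uncertain counts.

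Named features are the 10 largest called rises and falls with a mean of at least 10 CPM and the states apart, the 10 most abundant per state, up to 4 per list, the 5 largest differences from input in each direction, and Mir150, Mir155, Mir21a, Mir93, Mir26b and let-7 genes. Those named after their values were seen are Mir17, Mir20b, Mir106b, Mir23a, Mir23b, Mir27a, Mir1941, Mir200a, Mir96, Mir222, Mir29c, Mir30b, Mir32 and cluster or list members quoted for a range. The members and lists were chosen with earlier results of these data known. Lists overlap: Mir10a and Mir10b are in the stromal and miR-10 lists, Mir322 in the miR-322 and miR-15/16 lists, and miR-15/16 and miR-181 genes also in the haematopoietic list. The scripts were run on simulated counts with a common spread for all features, unlike these data, which checks the code and not the error rates here. Alternatives were other scaling factors, other filters, the IP libraries alone, a replicate block, each IP library left out, unnamed and snoRNA-overlapping features left out, and DESeq2 1.42.0.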

Additional observations from a re-analysis of the deposited data

Results flagged for a closer look

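The difference between resting and proliferating cells was not the same in the IP as in the input for 30 of the features named, by the edgeR test of that difference at an adjusted p under 0.05 (38 of 219 features, 17.4%, in all). Values are the log2 difference of resting minus proliferating cells in the IP minus the same in the input.

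The let-7 genes with a higher value were Mirlet7b (3.92), Mirlet7a-1 (3.27), Mirlet7i (2.27), Mirlet7f-2 (2.18), Mirlet7g (1.76) and Mirlet7d (1.18). The other features with a higher value in the IP were ENSMUSG00000076258.1 (5.03), Mir122 (4.40), Mir200b (3.25), Mir26a-2 (2.61), Mir6236 (2.43), Mir32 (1.81), Mir200c (1.74), Mir26b (1.65) and Mir223 (1.40). The unnamed feature ENSMUSG00000076258.1 had counts in resting IP replicate 2 that were not in its partner, and without that library its value was -1.97; that of Mir6236 was -0.54. Mir122 was not called in the IP itself.

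A lower value in the IP was found for Mir542 (-7.35), Mir455 (-3.33), Mir3964 (-3.24), Mir132 (-2.74), Mir1249 (-2.73), Mir125a (-2.40), Mir126a (-2.34), Mir1983 (-2.32), Mir17 (-1.90), Mir301b (-1.89), Mir23a (-1.77), Mir23b (-1.69), Mir27a (-1.59), Mir20b (-1.21) and Mir29c (-1.18). Of the named features with such a call, 13 kept it under every alternative that gave a value: Mirlet7b, Mirlet7i, Mirlet7f-2, Mirlet7g, Mir26b, Mir26a-2, Mir200b, Mir32, Mir23a, Mir17, Mir1983, Mir3964 and Mir455. The cause of these differences was not tested.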

How the results depend on the processing

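Between 94 and 115 features were called between the IPs under the 13 alternatives, against 114. Of 68 named features called in the IP, 53 kept their direction and call under all that gave a value. With upper-quartile factors 38 features were lower rather than 62. Leaving out 1 IP library gave 94 to 107 calls, 44 to 51 higher and 50 to 56 lower. The replicate block called 109 features in the IP and 40 in the difference from input. The deviations of same-numbered IP libraries correlated at -0.0121. Those of same-numbered IP and input libraries correlated at -0.0972 in proliferating and -0.0802 in resting cells. The numbers were not taken as pairs, although the titles number IP and input libraries alike. These correlations cannot show whether the libraries were paired. The replicate block fits a single term over all groups, so pairs of IP and input within a state were not modelled.

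The difference from input depended more on the scaling. Its 38 calls became 25 with DESeq2's size factors and 22 with upper-quartile factors. Its 21 lower calls became 13 with DESeq2's size factors, 7 with library totals and 7 with upper-quartile factors, and its 17 higher calls 11 with a minimum count of 50. Leaving out 1 IP library gave 26 to 46 calls, 10 to 16 higher and 13 to 31 lower. The cause was not tested. The fit of the IP libraries alone gives no such difference.

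Some log2 fold changes in the IP changed sign. With upper-quartile factors the values were 0.34 for Mir15b, 0.17 for Mir21a, 0.29 for Mir351, 0.34 for Mir3964 and 0.65 for Mirlet7a-2. Mirlet7a-2 was at 0.057 with DESeq2's size factors, 0.054 with DESeq2 and 0.11 with no filter. Mir425 was at -0.0018 with library totals, -0.063 with a minimum count of 50 and -0.023 with the block. Leaving out 1 IP library, the ranges were -3.82 to 6.85 for ENSMUSG00000076258.1, -0.012 to 0.43 for Mir146, -0.035 to 0.21 for Mir27b, -0.76 to 0.027 for Mir351, -0.79 to 0.97 for Mir3964, -0.37 to 0.28 for Mir425, -0.13 to 1.25 for Mir99b and -1.02 to 0.83 for Mirlet7a-2. For the difference from input they were -1.97 to 8.90 for ENSMUSG00000076258.1 and -0.54 to 3.18 for Mir6236. With these exceptions no named feature reversed. An input library holds 213418 to 386598 counts, which limits the difference from input for features of few counts.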
